A study of Mus musculus with 12 samples.

Results

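The highest tested dose of a blueberry extract, 200 mg/kg per day, was compared with the middle dose, 100 mg/kg per day, in mouse testis. The comparison used the 3 libraries labelled with each dose, 6 of the 12 libraries of the series, chosen by dose alone; the saline and 50 mg/kg libraries entered none of the comparisons below and served only in 1 alternative fit of all 12, so a difference between the doses does not say which of them departed from an undosed testis. All animals were wild-type males of the outbred ICR stock and all received extract daily by stomach tube, from an age of 8 months, and testes were taken at 9 months. The study used mice of this age as a model of natural reproductive ageing, and its other readouts were sperm motility, tissue sections and proteins. All 6 libraries carried the same batch label. The sources used here do not say whether the 3 libraries of a dose came from separate animals, so each p-value is set against the spread between libraries alone, and that spread may be technical.

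The adult testis is mostly germ cells at successive stages. Spermatogonia enter meiosis as spermatocytes, where the synaptonemal complex and cohesin hold paired chromosomes while recombination proceeds and piRNAs silence transposons. The haploid spermatids that follow build an acrosome and a flagellum and replace histones with protamines. Sertoli cells support the germ cells and seal the blood-testis barrier, Leydig cells between the tubules make testosterone, and resident macrophages belong to an organ known for restrained immune responses. RNA from whole testis averages over these cells, so fewer cells of a type and less RNA per cell cannot be told apart in any result below.

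Total counts ran from 14382378 to 18810691 over the 6 libraries. Germ-cell genes that mark testis were abundant in all of them, with the protamine gene Prm1 at 2541 to 4879 CPM (counts scaled to library size with TMM factors). The doses separated along the first principal component, which carried 68.4% of the variance. At 100 mg/kg, library 3 differed most from its companions: its chi-square per degree of freedom was 11.5 against library 1 and 7.65 against library 2, whereas the other pairs within a dose lay between 1.59 and 2.32 and pairs across doses between 23.7 and 60.2. The median standard deviation (SD) of a gene within a dose was 0.134 on the log2 scale at 100 mg/kg and 0.0899 at 200 mg/kg.

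The difference between the doses moved with transcript length. Genes whose longest annotated transcript was over 500 and up to 1000 bases long had a median log2 fold change (200 over 100 mg/kg, positive when higher at 200) of -0.46 over 767 genes, genes of over 2000 and up to 3000 bases -0.10 over 3182 genes, and genes above 6000 bases 0.42 over 2152 genes. Across 15297 genes, which are not independent of each other, Spearman's rho between fold change and length was 0.549. The trend was measured in each library as its deviation from the mean of the 6 libraries at 8000 bases minus that at 600 bases. On the log2 scale this slope was -0.275, -0.369 and -0.725 in the 100 mg/kg libraries. In the 200 mg/kg libraries it was 0.398, 0.522 and 0.429. The doses did not overlap, and library 3 of the 100 mg/kg group had the steepest slope of all. The means differed by 0.906, with a two-sided exact permutation p of 0.1, the smallest that 3 libraries against 3 can give. Every comparison was therefore made without and with a correction that removed each library's own length trend, after which rho was 0.003.

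**Figure D1:**
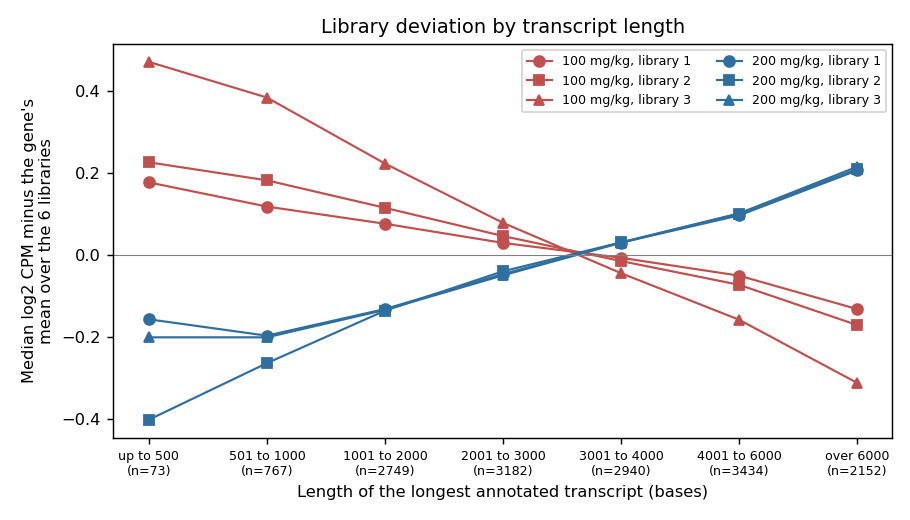
Median deviation of each library from the gene's mean over the 6 libraries (log2 CPM, vertical axis) in 7 classes of transcript length (bases, horizontal axis), 1 line per library. The 3 libraries at 100 mg/kg run downward with length and the 3 at 200 mg/kg upward, and library 3 at 100 mg/kg is the steepest.

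Without the length correction, 15325 genes were tested with edgeR's quasi-likelihood test and 7677 (50.1%) passed a Benjamini-Hochberg adjusted p of 0.05, 3934 (25.7%) higher at 200 mg/kg and 3743 (24.4%) lower. With the correction, 6430 of 15297 genes (42%) passed, 3185 higher (20.8%) and 3245 lower (21.2%). The median absolute log2 fold change of all tested genes, called or not, was 0.30 without and 0.23 with the correction. Changes of at least 2-fold were called for 522 genes without the correction (3.41%), 367 higher (2.39%) and 155 lower (1.01%). With it they were called for 344 genes (2.25%), 225 higher (1.47%) and 119 lower (0.778%). The 2 analyses gave the same call for 4781 genes, 2541 higher and 2240 lower, while 2724 calls were lost with the correction, 1485 were gained and 164 changed direction. Without library 3 of the 100 mg/kg group, 7535 genes were called uncorrected and 6253 corrected, and 7060 and 5790 of these were calls of the full comparison. The doses did not overlap in 9222 of all tested genes (60.2%) without the correction and in 8052 (52.6%) with it. Non-overlap was also a condition for choosing the largest rises and falls described below, so it lends those genes no support. Throughout, rose and fell refer to genes that passed this test, from 100 to 200 mg/kg.

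GC content, the share of G and C bases in the longest transcript, also moved with the fold change, and the length correction left most of that relation in place. Spearman's rho over the 15297 genes was -0.41 without and -0.379 with the length correction. After it, the fifth of genes with the lowest GC content, 31 to 43.6%, had a median log2 fold change of 0.18, and the fifth with the highest, 55.4 to 73.1%, a median of -0.20. Counts corrected for length and GC content together are therefore given beside each gene group. Over all 15297 genes they were 2757 higher and 2821 lower. All 3 analyses gave the same call for 3474 genes, 1949 higher and 1525 lower. Whether length and GC content have a part in any single gene's change was not tested.

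**Figure D2:**
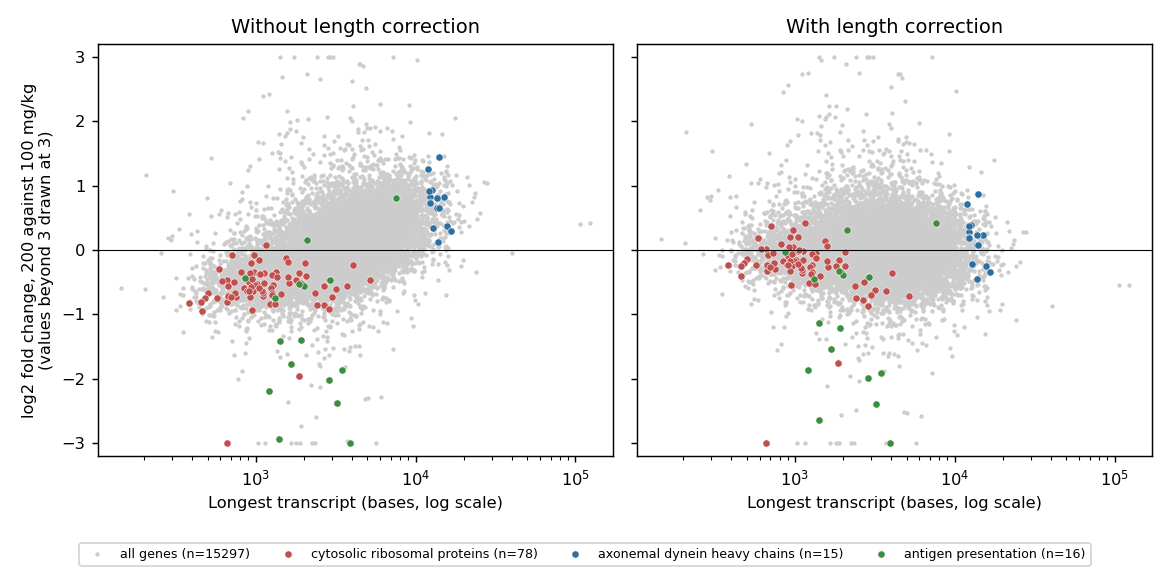
Log2 fold change of 15297 genes at 200 against 100 mg/kg (vertical axis) against the length of the longest transcript (bases, log scale), without (left) and with (right) the length correction, with 3 gene groups in colour. The upward trend on the left is level on the right. Antigen-presentation genes lie low on both sides, and dynein heavy chains move from a median of 0.74 to 0.20.

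The steepest falls were called with and without the length correction. Vgll2, a cofactor of TEAD transcription factors (chromosome 10, 52022502 to 52028471, GRCm38), was present at 8.16, 10.1 and 12.3 CPM at 100 mg/kg and at 0.0578, 0.278 and 0 CPM at 200 mg/kg. The 2 groups were far apart, with 525 counts in the 3 libraries at 100 mg/kg and 5 at 200 mg/kg, a ratio of 100 with a 95% exact binomial interval of 42.7 to 310 that covers counting error only. Slc22a20, an organic anion transporter gene (chromosome 19, 5970234 to 5986143), had 2.08, 2.44 and 2.68 CPM at 100 mg/kg and no count in any 200 mg/kg library. Its 124 counts, set against a floor of 3 counts over the 200 mg/kg group, give a ratio of 39.4. The exact 95% interval of the observed ratio, for counting error only, begins at 31.6. Adjusted p was 1.27e-07 for Vgll2 and 2.97e-06 for Slc22a20 in edgeR without the correction.

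Rpl26 encodes a protein of the large ribosomal subunit (chromosome 11, 68901583 to 68906989). Its level was 244, 259.7 and 295.6 CPM at 100 mg/kg and 10.1, 10.2 and 12.2 CPM at 200 mg/kg, a fall of 24.5-fold without the correction and 17.6-fold with it. The log2 fold change was -4.61 ± 0.096 (SE) uncorrected and -4.14 ± 0.067 corrected. Ribosomal protein genes have many near-identical processed copies, so how the counting assigned such reads bears on this value. Galntl6, a gene of the N-acetylgalactosaminyltransferase family, went from 38.7, 41.1 and 37.3 CPM to 1.21, 1.32 and 1.80 CPM. Its 26.7-fold fall (32.4-fold corrected) is uncertain because it overlaps BC030500. Cdh22, a cadherin gene, fell 7.80-fold (8.21-fold corrected), to 0.525 ± 0.269 CPM (mean ± SD, n = 3), and Sirpb1b, a receptor of the signal-regulatory family with close copies, fell 4.39-fold (4.12-fold corrected) from 3.76 ± 0.149 CPM.

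The largest rises began from very low levels. Pga5, which encodes the stomach protease precursor pepsinogen (chromosome 19, 10668956 to 10678071), had 0.179, 0.530 and 0.250 CPM at 100 mg/kg and 8.03, 6.19 and 7.13 CPM at 200 mg/kg, a rise of 21.3-fold (25.8-fold corrected). Phyhip, whose product binds phytanoyl-CoA hydroxylase (chromosome 14, 70457476 to 70468832), went from 0.357, 0.689 and 0.998 CPM to 10.7, 12.2 and 9.72 CPM, a rise of 15.9-fold (16.4-fold corrected). Both genes were chosen among those whose groups do not overlap. Adjusted p was 1.52e-07 for Pga5 and 9.16e-08 for Phyhip in edgeR without the correction.

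The other rises reached lower levels. The serine protease gene Tmprss11a rose 15.2-fold (15.3-fold corrected) to 2.17 ± 0.347 CPM (n = 3). Atp7a, the copper exporter, had 1.13, 0.848 and 0.187 CPM at 100 mg/kg and 4.10, 3.199 and 5.28 CPM at 200 mg/kg, a 5.72-fold rise (4.98-fold corrected). Cth, which makes cysteine from cystathionine, rose 4.07-fold (4.69-fold corrected), from 0.959 ± 0.196 to 3.87 ± 0.344 CPM. The septin gene Sept14 rose 3.67-fold (4.32-fold corrected), to 6.19 ± 0.211 CPM, and Aff2, a gene of the AFF family of transcription elongation factors, 7.43-fold (6.65-fold corrected), to 1.94 ± 0.585 CPM. The remaining genes of the 12 largest rises were Fbxo48 (an F-box protein), the zinc finger genes Zfp937 and Zfp970, which have close copies, Acss3, which overlaps Ppfia2, and Zc3h11a, which overlaps a second gene of the same symbol, and their rises ran from 3.52-fold for Zfp970 to 7.39-fold for Zc3h11a.

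**Figure D3:**
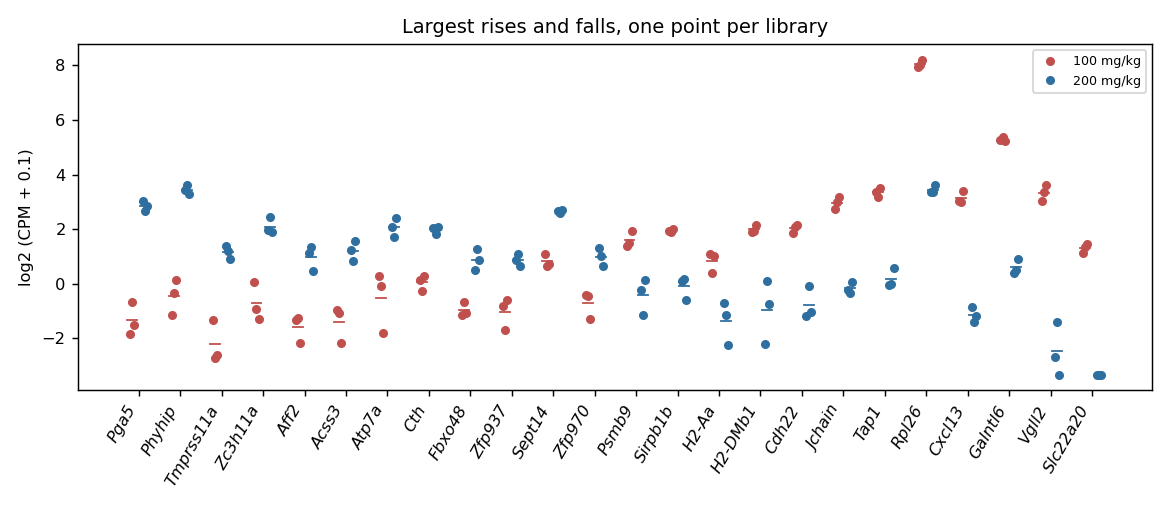
Levels of the genes with the 12 largest rises and the 12 largest falls, as log2 of CPM plus 0.1, 1 point per library and a bar at the group mean. Genes were chosen among those whose groups do not overlap, and the points at the foot of the plot are libraries with no count of Slc22a20 or Vgll2.

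Genes of antigen presentation were the group with the lowest median. Cells cut proteins in the proteasome, carry the peptides across a membrane with the transporter TAP and show them on class I histocompatibility molecules, and antigen-presenting cells show other peptides on class II molecules. Of 16 tested genes, 1 rose and 14 fell without the correction, with a median log2 fold change of -1.41, against 0.0049 over all genes. With the correction 2 rose and 12 fell, with a median of -1.17. The share called was 93.8% uncorrected and 87.5% corrected, where 50.1% and 42% of all genes were called. The counts were 2 and 12 after correction for length and GC content, with a median of -1.06. Without library 3 of the 100 mg/kg group they were 2 higher and 13 lower, with a median of -1.08, and 1 higher and 12 lower with a median of -0.88 after the length correction. Summed over the list, the level was 247.2 to 309.4 CPM at 100 mg/kg and 188 to 193.2 CPM at 200 mg/kg.

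For the transporter arm, Tap1, a subunit of TAP (chromosome 17, 34187553 to 34197225), was at 10.1, 9.06 and 11.2 CPM at 100 mg/kg and at 0.867, 0.904 and 1.40 CPM at 200 mg/kg. The doses did not overlap in Tap1, or in Psmb9 below, which was a condition for choosing both among the largest falls. Tap1 fell 9.38-fold without the correction (log2 fold change -3.23 ± 0.19), and its corrected log2 fold change was -3.32 ± 0.19, with edgeR adjusted p of 1.27e-07 and 1.67e-10. Its neighbour Psmb9, a catalytic subunit of the immunoproteasome, went from 2.50, 2.70 and 3.74 CPM to 0.751, 0.348 and 1.01 CPM, a 4.07-fold fall (3.96-fold corrected). The annotated spans of both genes overlap at their starts, so reads there can belong to either gene if strand was not used in counting. Tap2, the partner subunit of Tap1, changed by -1.87 and the tapasin gene Tapbp by -0.46 on the log2 scale, and both fell.

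Class II genes fell together. H2-Ab1, a beta chain, had 9.64, 9.86 and 12.7 CPM at 100 mg/kg and 2.08, 2.16 and 2.75 CPM at 200 mg/kg, a 4.57-fold fall (3.63-fold corrected). H2-Eb1, a second beta chain, went from 4.47, 5.30 and 6.61 CPM to 1.79, 1.39 and 1.57 CPM, a 3.41-fold fall (2.89-fold corrected). H2-Aa, the alpha chain that pairs with H2-Ab1, went from 2.02, 1.22 and 1.93 CPM to 0.520, 0.348 and 0.112 CPM, a 5.19-fold fall (5.24-fold corrected). The doses did not overlap in these genes, which was a condition for choosing H2-Aa, and H2-DMb1 below, among the largest falls. H2-DMb1, which helps load peptides, fell 7.61-fold (6.25-fold corrected), from 3.92 ± 0.393 to 0.532 ± 0.430 CPM, and Cd74, the chain that escorts class II molecules, changed by -1.42 on the log2 scale (-1.13 corrected). Class II and related genes have close copies within the histocompatibility region, and the ICR stock is outbred, so animals can carry different alleles of them. Whether allele or copy differences have a part in these values was not tested.

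Class I genes were mixed. H2-K1, a class I heavy chain, changed by -0.52 without and -0.33 with the length correction and fell in both. B2m, the light chain, changed by -0.44, a fall, without the correction and by -0.03 with it, which did not pass. H2-D1, another heavy chain, did not pass without the correction (0.16) and rose with it (0.31). Nlrc5, an activator of class I genes, was the only member of the list that rose without the correction, from 3.46 ± 0.400 to 6.06 ± 0.839 CPM (log2 fold change 0.81 ± 0.16). With the correction its change was 0.42 ± 0.16 with an edgeR adjusted p of 0.0455, and that call was lost when library 1 or 3 of either dose was left out. H2-T23, a non-classical class I gene, had 53 counts over the 3 libraries at 100 mg/kg and 7 at 200 mg/kg, too few to be tested. Ciita, the activator of class II genes, had 4 counts at 100 mg/kg and 6 at 200 mg/kg and was not tested. Tap2, Tapbp, Cd74, H2-K1, B2m, H2-D1, H2-T23, Ciita and Psmb8 were named after their values were seen.

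The promoters of these genes are shown because these genes are neighbours in the histocompatibility region of chromosome 17 and class II promoters are known to carry a Y box, a CCAAT element in reverse. In the RefSeq promoters (GRCm38.p6), Tap1 and Psmb9 start 225 bases apart on opposite strands and share the whole interval between them, chr17:34187331-34187555, printed on the plus strand, and the stretches of H2-Aa (chr17:34287859-34287898, minus strand), H2-Eb1 (chr17:34305781-34305820, plus strand) and H2-DMb1 (chr17:34153106-34153145, plus strand) lie just before their starts. Capitals mark CTGATTGG or its reverse complement, and in H2-DMb1 the shorter core ATTGG.
Tap1 and Psmb9 interval: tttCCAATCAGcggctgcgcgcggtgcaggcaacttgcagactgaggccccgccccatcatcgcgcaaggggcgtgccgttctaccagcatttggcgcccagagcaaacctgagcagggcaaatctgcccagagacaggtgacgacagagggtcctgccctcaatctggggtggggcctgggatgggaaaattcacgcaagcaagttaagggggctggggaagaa
H2-Aa: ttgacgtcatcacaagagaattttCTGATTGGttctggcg
H2-Eb1: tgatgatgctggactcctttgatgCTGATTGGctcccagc
H2-DMb1: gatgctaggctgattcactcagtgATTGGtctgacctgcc

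Of the 16 tested antigen-presentation genes, 12 had a promoter entry, from 250 bases before to 50 after the start, and both strands were searched. CTGATTGG was present for 6 of them and ATTGG, which lies inside it, for 10. The copy marked in the shared Tap1 and Psmb9 interval counts for both genes. It begins 11 bases before the Psmb9 start, while the copies of H2-Aa and H2-Eb1 begin 51 and 62 bases before theirs. Among all 32851 promoters, 4.1% held CTGATTGG and 37.4% held ATTGG. H2-D1 holds CTGATTGG as well and did not fall, and Psmb8, which fell by 1.40 on the log2 scale uncorrected, holds neither motif in this window.

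Markers of immune cells were measured beside these genes. Of 17 tested macrophage markers, 2 rose and 9 fell without the correction (median log2 fold change -0.41), and 2 rose and 6 fell with it (median -0.40). Adding GC content left 1 rise and 4 falls (median -0.26), where 2757 of all 15297 genes rose and 2821 fell. The share of macrophage markers called was 64.7% uncorrected and 47.1% corrected, against 50.1% and 42% of all genes. The summed level of these markers was 580.1 to 643.8 CPM at 100 mg/kg and 494.2 to 510.5 CPM at 200 mg/kg. Lyz2, the macrophage lysozyme, went from 51.1, 57.3 and 64.8 CPM to 27.1, 23.7 and 26.6 CPM, a 2.23-fold fall (1.80-fold corrected) with no overlap. The complement genes C1qa and C1qb fell 1.81-fold and 1.69-fold uncorrected, but their corrected calls were lost when GC content was included. The scavenger receptor gene Cd163 rose 1.69-fold (1.52-fold corrected), a call lost without library 2 of the 100 mg/kg group and without library 1 of the 200 mg/kg group, and after correction also with GC content added.

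Of 10 tested lymphocyte genes, 1 rose and 4 fell without and with the length correction and also with GC content added. The share called was 50% uncorrected and corrected, near the 50.1% and 42% of all genes. Cxcl13 encodes a chemokine for B cells and went from 8.04, 7.79 and 10.4 CPM to 0.462, 0.278 and 0.337 CPM, a 23.5-fold fall (18.5-fold corrected). Jchain, the chain that joins antibody units, went from 6.55, 7.84 and 8.86 CPM to 0.751, 0.696 and 0.955 CPM, a 9.51-fold fall (8.78-fold corrected). Both are among the largest falls, which were chosen among genes whose groups do not overlap. The recombinase gene Rag1 fell 2.19-fold (log2 fold change -1.13 without and -1.48 with the correction), from 13.2 ± 0.661 CPM, although it overlaps another gene, and Crtam, an adhesion receptor of activated T cells, rose 3.28-fold (2.82-fold corrected) from 6.79 ± 0.471 to 22.3 ± 2.04 CPM. Other defining markers of B and T cells had few counts: over 3 libraries Ms4a1 had 16 counts at 100 mg/kg and 29 at 200 mg/kg, Cd79a 10 and 7, Cd79b 6 and 4, Cd3e 4 and 7, and Cd8a 0 and 1. The part of immune cell number in the falls of the antigen-presentation genes was not tested.

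Without the length correction, genes of the protein synthesis and respiratory machinery, which have short transcripts, were mostly lower at 200 mg/kg, and with it fewer of them were. Of 78 tested cytosolic ribosomal protein genes, 71 fell and 0 rose without the length correction, with a median of -0.55. With it 47 fell and 4 rose, with a median of -0.23, and with GC content added 37 fell and 4 rose, with a median of -0.15. The large and the small subunit had the same uncorrected median of -0.55. Their median transcript was 1076.5 bases long, against 3276 over all genes. Summed, they took 12850 to 15790 CPM at 100 mg/kg and 9406 to 9817 CPM at 200 mg/kg, with the highest value in library 3 of the 100 mg/kg group. Without that library 67 fell (median -0.44), and 47 fell after the correction (median -0.20).

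Rps2, of the small subunit, had 146.6, 152.4 and 177.9 CPM at 100 mg/kg and 99.8, 107.2 and 99.3 CPM at 200 mg/kg, a 1.56-fold fall that was 1.22-fold with the correction. Rpl21 fell 3.87-fold, from 15.4 ± 1.93 to 3.92 ± 0.815 CPM, and 3.37-fold after correction. Rpl35a fell 1.89-fold and 1.84-fold. Rpl26, described above, changed by -4.14 on the corrected log2 scale, against the list's corrected median of -0.23.

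Subunits of the respiratory chain encoded in the nucleus were also lower without the correction: 69 of 77 fell and 0 rose (median -0.51). With the length correction 32 fell and 7 rose (median -0.13), and with GC content added 27 fell and 8 rose (median -0.10). Cox6b2, the testis form of a cytochrome oxidase subunit, had 260.6, 277.7 and 325.4 CPM at 100 mg/kg and 175.4, 154.3 and 170.9 CPM at 200 mg/kg, a 1.72-fold fall that was 1.22-fold after correction. Genes of mitochondrial DNA turned with the correction. Of 12 tested, 1 rose and 9 fell uncorrected (median -0.25; -0.13 without library 3 of the 100 mg/kg group), 6 rose and 0 fell with the length correction (median 0.17), and 2 rose and 2 fell with GC content added (median -0.06). mt-Nd1, a complex I subunit, had 2048, 2159 and 2520 CPM at 100 mg/kg and 1950, 1840 and 1990 CPM at 200 mg/kg, groups that did not overlap but whose means differ by less than the range within the 100 mg/kg group. Proteasome subunits, 31 genes, showed 3 rises and 18 falls uncorrected (median -0.24) and 8 of each after correction, with 4 rises and 8 falls when GC content was added.

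**Figure D4:**
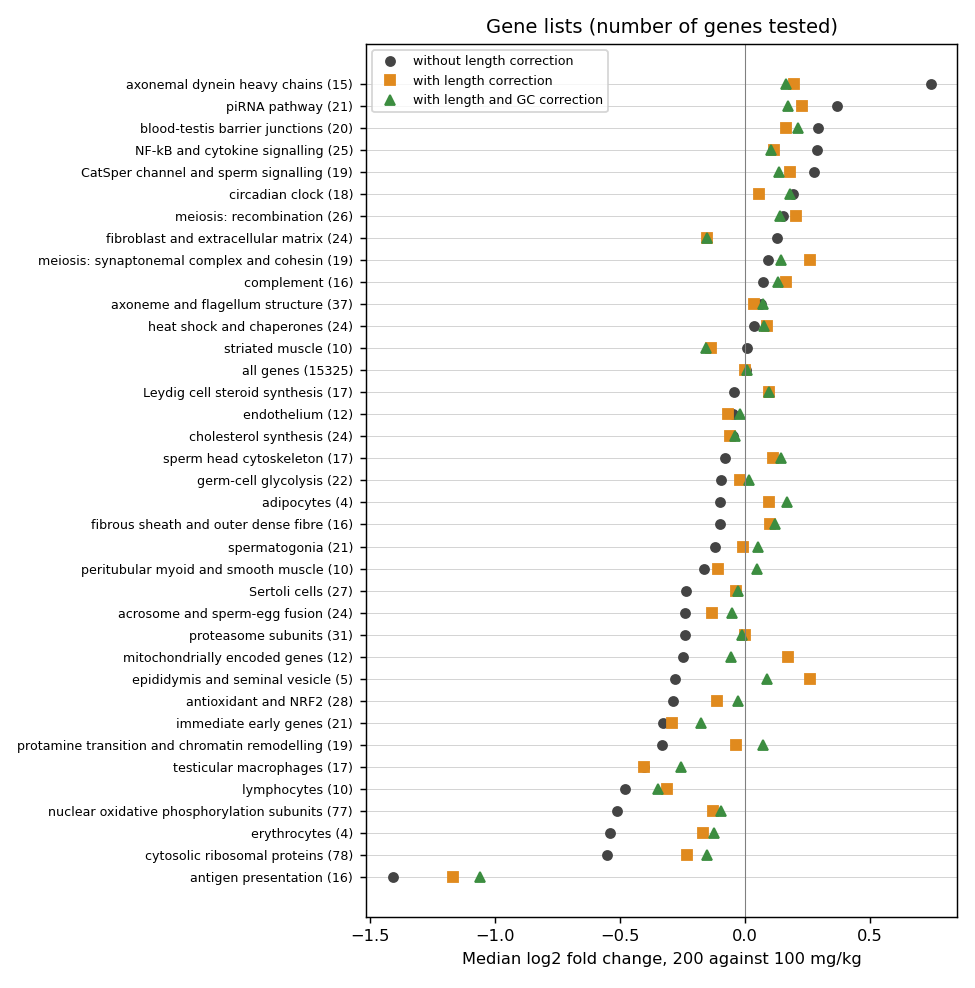
Median log2 fold change at 200 against 100 mg/kg for each gene list (number of genes tested in parentheses) without correction (circles), with the length correction (squares) and with length and GC correction (triangles). Antigen presentation lies lowest under all 3, at -1.41, -1.17 and -1.06, and the ribosomal, respiratory and dynein lists move toward 0 when corrected.

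Genes of meiosis were more often higher than lower at 200 mg/kg. Of 19 genes of the synaptonemal complex and cohesin, 8 rose and 4 fell without the length correction (median 0.09), and 10 rose and 1 fell with it (median 0.26). With GC content added 8 rose and 1 fell (median 0.15). Sycp1, the transverse filament of the synaptonemal complex, had 75.4, 69.1 and 64.8 CPM at 100 mg/kg and 122.2, 133.1 and 124 CPM at 200 mg/kg. It rose 1.81-fold (1.76-fold corrected), with no overlap. Sycp2, of the lateral element, went from 106, 101.9 and 80.8 CPM to 236.6, 247 and 239.6 CPM, a 2.50-fold rise (2.06-fold corrected). The cohesin genes Smc3 and Smc1b, which form the ring that holds sister chromatids, rose 1.91-fold and 1.67-fold uncorrected and 1.66-fold and 1.55-fold corrected. Rec8, the meiotic closing subunit of that ring, fell, from 95.1 ± 4.03 to 70.6 ± 3.05 CPM, 1.35-fold uncorrected and 1.22-fold corrected, a call that was lost with GC content added. Its relative Rad21l rose 2.72-fold (3.19-fold corrected), from 1.15 ± 0.435 to 3.14 ± 0.393 CPM.

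Of 26 genes of meiotic recombination, 10 rose and 4 fell uncorrected (median 0.15) and 11 rose and 2 fell corrected (median 0.20), and 8 rose and 2 fell with GC content added (median 0.14). The share called was 53.8% uncorrected and 50% corrected, against 50.1% and 42% of all genes. Atr, the kinase that acts on unpaired chromosomes in meiosis, had 153.7, 133.3 and 111.2 CPM at 100 mg/kg and 315.2, 318.3 and 314.3 CPM at 200 mg/kg. The rise was 2.38-fold without and 1.79-fold with the correction. The related double-strand break kinase Atm rose 2.80-fold (2.01-fold corrected), from 4.79 ± 0.741 to 13.4 ± 0.834 CPM. Tex15, listed here for its part in meiotic recombination, rose 1.77-fold (1.32-fold corrected), from 55.5 ± 2.63 to 98.2 ± 0.646 CPM. Psmc3ip, a cofactor of strand invasion that overlaps Mlx, fell 1.48-fold (1.19-fold corrected).

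Genes of the piRNA pathway were mostly higher. Of 21 genes, 14 rose and 3 fell uncorrected (median 0.37), and 13 rose and 0 fell corrected (median 0.23). Adding GC content gave 12 rises and 0 falls (median 0.17). The length-corrected median was 0.15 without library 3 of the 100 mg/kg group, with 12 rises. Piwil1, the piRNA-binding protein of pachytene spermatocytes and round spermatids, had 265.3, 243.3 and 203.2 CPM at 100 mg/kg and 383.4, 382.9 and 389.6 CPM at 200 mg/kg, a 1.62-fold rise (1.51-fold corrected). Mybl1, the transcription factor that drives pachytene piRNA genes, rose 1.80-fold (1.55-fold corrected), and Tdrd6, a tudor protein of the chromatoid body, rose 1.62-fold (1.26-fold corrected). Gtsf1, which works with PIWI proteins, fell 1.21-fold uncorrected and rose by 0.14 on the log2 scale corrected, and the corrected call was lost when GC content was included.

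**Figure D5:**
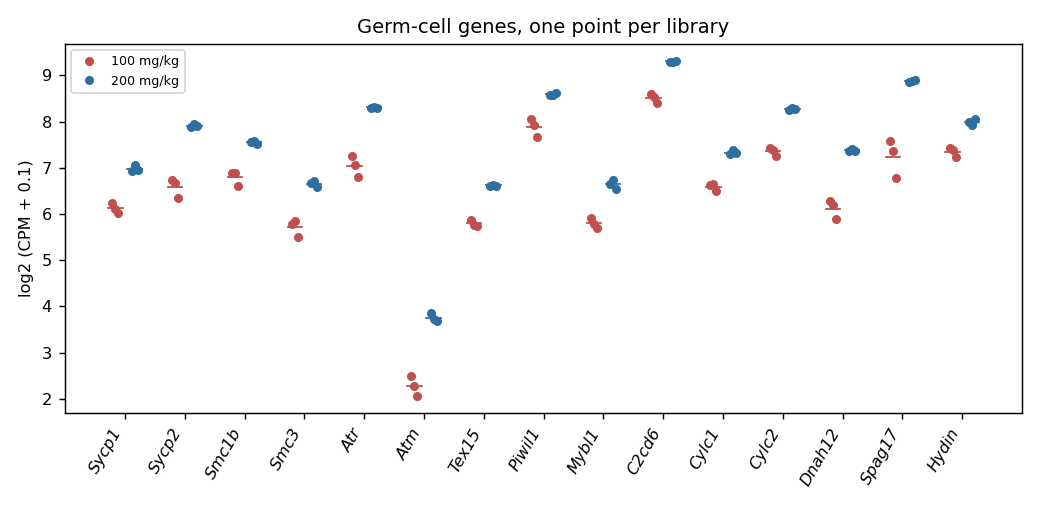
Levels of 15 germ-cell genes of meiosis, the piRNA pathway, the sperm head and the flagellum, as log2 of CPM plus 0.1, 1 point per library and a bar at the group mean. The doses do not overlap for any gene shown, as for 60.2% of all tested genes, and for Hydin the length correction takes the log2 fold change from 0.64 to 0.02.

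Flagellum genes were listed in groups that differ in transcript length. Of 15 axonemal dynein heavy chain genes, which encode the motors of the flagellum and have a median transcript of 13696 bases, 13 rose and 0 fell uncorrected (median 0.74). With the length correction 9 rose and 3 fell (median 0.20), and likewise with GC content added (median 0.16). Dnah12 had 77.2, 73 and 59 CPM at 100 mg/kg and 164.9, 170.2 and 165.4 CPM at 200 mg/kg, a 2.39-fold rise (1.65-fold corrected). Dnah8 changed from 0.29 to -0.34 on the log2 scale with the correction, passing in both directions, and Dnah1 likewise from 0.35 to -0.22; both were named after their values were seen. Dnah7a, Dnah7b and Dnah7c, which rose in both analyses, are close copies of each other, and the corrected call of Dnah7a was lost with GC content added.

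Of 22 genes for proteins associated with cilia and flagella, 14 rose and 1 fell uncorrected (median 0.53) and 14 rose and 0 fell corrected (median 0.19). When GC content was added, 11 rose and 2 fell (median 0.12). Spag17, of the central pair apparatus, had 189.7, 165.1 and 109.1 CPM at 100 mg/kg and 463, 466.3 and 476.2 CPM at 200 mg/kg, a 3.03-fold rise (2.30-fold corrected), although it overlaps Wdr3. Cfap43, which overlaps 3 genes, rose 1.76-fold (1.43-fold corrected). Hydin, also of the central pair, rose 1.56-fold uncorrected, from 162.2 ± 11.2 to 252.7 ± 11.4 CPM, but its corrected log2 fold change was 0.02 ± 0.046 with an edgeR adjusted p of 0.742. Of 15 genes of radial spokes, tektins and inner microtubule proteins, whose transcripts are shorter, 1 rose and 11 fell uncorrected (median -0.38) and 3 rose and 6 fell corrected (median -0.07), with 3 and 5 when GC content was added. Tekt2, a tektin, fell 1.51-fold (1.26-fold corrected).

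The fibrous sheath and outer dense fibres wrap the flagellum, and of their 16 genes 5 rose and 7 fell uncorrected (median -0.10) and 8 rose and 2 fell corrected (median 0.10), with 8 and 1 when GC content was added. Akap4, the main sheath protein, had 2422, 2419 and 2219 CPM at 100 mg/kg and 2821, 2763 and 2776 CPM at 200 mg/kg. It rose by 0.24 on the log2 scale (0.26 corrected), and the corrected call was lost when the mean transcript length replaced the longest. Fsip2, a sheath protein of very long transcript, rose 2.19-fold (1.35-fold corrected). Of 19 genes of the CatSper calcium channel and sperm signalling, 11 rose and 6 fell uncorrected (median 0.27) and 12 rose and 1 fell corrected (median 0.18), with 10 and 1 when GC content was added. C2cd6, a CatSper component, went from 389, 367.7 and 335.4 CPM to 626.3, 627.9 and 636.2 CPM, a 1.73-fold rise (1.91-fold corrected). Adcy10, the soluble adenylyl cyclase that responds to bicarbonate, rose 1.61-fold (1.33-fold corrected). The pore subunit gene Catsper1 did not pass, at 148.5 ± 3.91 and 142.3 ± 5.54 CPM, and Catsperz, which overlaps Kcnk4, fell 1.85-fold (1.44-fold corrected).

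Of 24 genes of the acrosome and of sperm-egg fusion, 2 rose and 17 fell uncorrected (median -0.24) and 4 rose and 11 fell corrected (median -0.13). When GC content was added, 5 rose and 10 fell (median -0.05). The share called was 79.2% uncorrected and 62.5% corrected, against 50.1% and 42% of all genes. Tmem95, a sperm membrane protein needed for fusion with the egg, had 40.4, 42.4 and 46.7 CPM at 100 mg/kg and 16.6, 17.8 and 16.2 CPM at 200 mg/kg. The fall was 2.56-fold without and 1.79-fold with the correction. Acrbp, which binds the acrosomal protease precursor, fell 1.54-fold (1.35-fold corrected), and Ly6k, a surface protein of germ cells, 2.27-fold (1.68-fold corrected). Of 17 genes of the sperm head cytoskeleton, 5 rose and 8 fell uncorrected, 9 rose and 2 fell corrected, and 11 rose and 0 fell with GC content added. Cylc1 and Cylc2, the cylicins of the perinuclear theca, rose in both analyses. Cylc1 went from 96.4 ± 5.48 to 160.7 ± 4.71 CPM, 1.67-fold (1.88-fold corrected), and Cylc2 from 163.4 ± 9.22 to 310.7 ± 4.66 CPM, 1.90-fold (2.24-fold corrected).

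Of 19 genes of the change from histones to protamines, 5 rose and 11 fell uncorrected (median -0.33) and 6 rose and 6 fell corrected (median -0.04). With GC content added 8 rose and 4 fell (median 0.07). Prm1, with 3675, 3957 and 4879 CPM at 100 mg/kg and 2843, 2541 and 2922 CPM at 200 mg/kg, fell 1.51-fold uncorrected, and its corrected log2 fold change of -0.04 ± 0.039 did not pass (edgeR adjusted p = 0.461). Tnp1, a transition protein, fell 1.77-fold (1.19-fold corrected). Glycolysis genes of germ cells gave 7 rises and 9 falls among 22 uncorrected and 6 of each corrected. With GC content added they gave 6 rises and 4 falls. Of these genes, 72.7% were called uncorrected and 54.5% corrected, against 50.1% and 42% of all genes. Ldhc, the sperm lactate dehydrogenase, fell 1.22-fold uncorrected, from 5317 ± 272 to 4358 ± 40.6 CPM, and did not pass with the correction (log2 fold change 0.01). Gapdhs, the sperm form of glyceraldehyde-3-phosphate dehydrogenase, fell in both, 1.49-fold and 1.23-fold.

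Among 21 spermatogonial genes, 5 rose and 5 fell uncorrected, 3 rose and 4 fell corrected, and 3 rose and 3 fell with GC content added. The share called was 47.6% uncorrected and 33.3% corrected, against 50.1% and 42% of all genes. Kit, the receptor of differentiating spermatogonia, rose 1.78-fold (1.51-fold corrected), from 26.5 ± 1.56 to 47.3 ± 3.52 CPM. Zbtb16, a factor of undifferentiated spermatogonia, rose 3.07-fold (2.62-fold corrected), from 1.67, 1.80 and 1.25 CPM to 4.91, 5.15 and 4.61 CPM. Uchl1, another marker of early spermatogonia, fell 1.55-fold (1.23-fold corrected), and the corrected call was lost with GC content added. Nanos3 fell 3.10-fold (2.29-fold corrected), from 1.26 ± 0.319 to 0.413 ± 0.124 CPM. Its corrected call was lost with DESeq2 and in some of the fits that left out 1 library. Dmrtb1 fell 1.37-fold (1.19-fold corrected), from 875 ± 64.5 to 640.7 ± 5.95 CPM, and its corrected call was also lost with GC content added.

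The Leydig cell list of 17 genes joined genes of steroid synthesis with others outside it, such as Sult1e1, Klk1b27 and Ptgds. Of the 17, 4 rose and 6 fell uncorrected, 7 rose and 5 fell corrected, and 7 rose and 3 fell with GC content added. The share called was 58.8% uncorrected and 70.6% corrected, against 50.1% and 42% of all genes. Star, which moves cholesterol into mitochondria, had 85.9, 86.2 and 78.9 CPM at 100 mg/kg and 103.7, 105.2 and 108.1 CPM at 200 mg/kg, a 1.26-fold rise (1.17-fold corrected). Hsd17b3, which makes testosterone from androstenedione, had 71.7, 71.3 and 77.7 CPM and 94.7, 84.8 and 86.3 CPM, a log2 rise of 0.27 (0.58 corrected). Neither gene overlapped between doses. Cyp17a1, the enzyme before Hsd17b3 in the pathway, did not pass in either analysis, at 461.4 ± 23.8 and 436.3 ± 9.29 CPM. Sult1e1, which sulphates oestrogens, rose 1.57-fold (1.96-fold corrected). Klk1b27, the widest fall of this list, went from 16.1 ± 2.13 to 7.47 ± 0.390 CPM, 2.15-fold (1.62-fold corrected). Ptgds fell 1.36-fold (1.10-fold corrected), from 333.9 ± 45.3 to 244.9 ± 5.80 CPM, and its corrected call was lost with GC content added. Of 24 cholesterol synthesis genes 7 rose and 5 fell uncorrected, 4 rose and 5 fell corrected, and 3 rose and 6 fell with GC content added. The share of them called was 50% uncorrected and 37.5% corrected, against 50.1% and 42% of all genes.

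Of 27 Sertoli cell markers, 6 rose and 12 fell uncorrected (median -0.24) and 5 rose and 7 fell corrected (median -0.04). With GC content added 5 rose and 6 fell. The share of them called was 66.7% uncorrected and 44.4% corrected, against 50.1% and 42% of all genes. Cst9, a cystatin of Sertoli cells, had 33.9, 35 and 37.1 CPM at 100 mg/kg and 73.5, 75 and 70.2 CPM at 200 mg/kg, a 2.06-fold rise (2.84-fold corrected). Abca1, which exports cholesterol, rose 2.40-fold (1.71-fold corrected). Inha, the alpha subunit of the hormone inhibin, fell 1.59-fold, from 58 ± 5.69 to 36.5 ± 1.15 CPM (1.31-fold corrected), and Shbg, which binds sex steroids, fell 1.90-fold (1.56-fold corrected). Of 20 genes of blood-testis barrier junctions, 12 rose and 5 fell uncorrected (median 0.29) and 9 rose and 4 fell corrected (median 0.16), with 10 and 5 when GC content was added (median 0.21). The tight junction scaffold gene Tjp1 had 69.4, 73.8 and 55.1 CPM and 111.7, 108.2 and 112.8 CPM, a 1.68-fold rise (1.30-fold corrected). Cdh2, N-cadherin, rose 1.86-fold (1.62-fold corrected), and Nectin2, an adhesion receptor between Sertoli cells and spermatids, fell 1.42-fold (1.36-fold corrected).

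Markers of other cell types that a testis could hold were called after length correction at shares below or near the 42% of all genes. Without it, 60% of peritubular myoid and smooth muscle genes and 75% of erythrocyte genes were called, against 50.1% of all genes. Myoid and smooth muscle genes showed 2 rises and 4 falls of 10 uncorrected, 0 and 2 corrected, and 0 and 1 with GC content added. Endothelial genes showed 1 and 2 of 12 uncorrected, and 0 and 3 with either correction. Matrix genes showed 6 and 4 of 24 uncorrected, 4 and 5 corrected, and 3 and 4 with GC content added (median -0.15 with either correction). Erythrocyte genes went from a summed 41.5 to 52.2 CPM to 29.3 to 31.5 CPM, with 3 of 4 called lower uncorrected, 1 corrected (median -0.17) and 0 with GC content added. Adipocyte markers summed to 38.8 to 55.2 CPM and 26.9 to 36.5 CPM. Of 4 tested, 1 rose and 1 fell uncorrected, and none was called after either correction. Of 13 genes of the epididymis and seminal vesicle only 5 had enough counts to test, and 0 rose and 1 fell uncorrected. After correction 1 rose, 1 fell and 3 did not pass, with the same counts when GC content was added. Cst8, which rose, is also made by germ cells, at 225.1 ± 18.6 and 241.7 ± 8.75 CPM. Of 22 striated muscle genes 10 were tested, of which 4 rose and 1 fell uncorrected, and 0 rose and 3 fell with either correction. Myod1 had no count in either group, and Vgll2, which belongs to that list, is described above.

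Genes of oxidative defence fell more often than they rose. Of 28, 2 rose and 16 fell uncorrected (median -0.29), 7 rose and 13 fell corrected (median -0.11), and 7 rose and 11 fell with GC content added (median -0.03). Gss, which completes glutathione synthesis, had 20.8, 22.3 and 22 CPM at 100 mg/kg and 9.36, 12.7 and 10.4 CPM at 200 mg/kg, a 2.02-fold fall (2.05-fold corrected), although it overlaps Acss2. Sod2, the mitochondrial superoxide dismutase, went from 113.3 ± 10.8 to 94.6 ± 1.85 CPM and fell in both analyses (log2 fold change -0.26, and -0.56 corrected). Cat, the catalase gene, rose 1.49-fold, from 9.25 ± 1.40 to 13.8 ± 1.85 CPM (1.58-fold corrected). Gpx4, the lipid peroxide reductase that also builds the sperm midpiece, fell 1.48-fold uncorrected and 1.13-fold corrected, while with GC content added its log2 fold change was 0.06 and did not pass. Hmox1, haem oxygenase, fell 1.54-fold, from 11.3 ± 0.408 to 7.27 ± 1.65 CPM. Its corrected call (1.29-fold) was lost with DESeq2, with GC content added, and when library 1 or 2 of either dose was left out.

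Among 25 genes of NF-kB and cytokine signalling, 7 rose and 3 fell uncorrected (median 0.29) and 5 rose and 4 fell corrected (median 0.12, and 0.04 without library 3 of the 100 mg/kg group). With GC content added 5 rose and 1 fell (median 0.10). The share called was 40% uncorrected and 36% corrected, below the 50.1% and 42% of all genes. Rela, the p65 subunit of NF-kB, went from 44.1 ± 1.71 to 35.3 ± 1.07 CPM and fell in both analyses (log2 fold change -0.32, and -0.26 corrected), but that call was lost with GC content added. Chuk, a kinase that frees NF-kB, rose 1.42-fold (1.36-fold corrected). Vcam1, an adhesion molecule, had 103.8, 96.6 and 99.6 CPM and 154.9, 156.5 and 153.5 CPM, a 1.55-fold rise (1.43-fold corrected). Il1b, the interleukin-1 beta gene, rose from 0.949 ± 0.107 to 1.66 ± 0.412 CPM, 1.76-fold (2.15-fold corrected). Its uncorrected call was lost without library 2 or 3 of the 100 mg/kg group, and both calls without library 1 of the 200 mg/kg group. Sirt1, a deacetylase, rose 1.35-fold, from 40.5 ± 1.75 to 54.8 ± 5.96 CPM (1.21-fold corrected), a call that did not pass with GC content added.

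Immediate early genes, which are switched on within minutes of a stimulus, showed 0 rises and 7 falls among 21 uncorrected (median -0.33) and 0 and 6 corrected (median -0.29). With GC content added 1 rose and 2 fell. The share called was 33.3% uncorrected and 28.6% corrected, below the 50.1% and 42% of all genes. Egr1 had 11, 9.75 and 11 CPM at 100 mg/kg and 3.41, 3.48 and 3.31 CPM at 200 mg/kg, a 3.11-fold fall (3.48-fold corrected). Junb, which overlaps Prdx2, fell 1.83-fold uncorrected (1.59-fold corrected), from 4.78 ± 0.472 to 2.64 ± 0.671 CPM. Its corrected call was lost with GC content added and without library 3 of the 200 mg/kg group. Of 24 chaperone genes 11 rose and 7 fell uncorrected and 10 rose and 7 fell corrected. With GC content added, however, 7 rose and 9 fell. Of the chaperone genes, 75% were called uncorrected and 70.8% corrected, against 50.1% and 42% of all genes. Hsp90aa1, the inducible cytosolic HSP90, rose 1.44-fold, from 1851 ± 163 to 2668 ± 33.2 CPM (1.42-fold corrected), Hsp90b1 of the endoplasmic reticulum rose 1.60-fold (1.58-fold corrected), and Hspa1l, a spermatid HSP70, fell 1.61-fold uncorrected and also with the correction. Clock genes gave 9 rises and 1 fall of 18 uncorrected, 5 and 2 corrected and 4 and 2 with GC content added, and Clock itself rose 1.87-fold (1.35-fold corrected). The share of clock genes called was 55.6% uncorrected and 38.9% corrected, near that of all genes.

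The 164 genes whose call changed direction with the length correction comprised 93 that went from higher to lower and 71 that went from lower to higher. Those with the smallest p were Usp15, a ubiquitin protease, Ep400, a chromatin remodeller, Zfp318, a zinc finger gene, and Strbp, which binds RNA in spermatids and overlaps other genes. Their log2 fold changes were 0.38 to 0.45 uncorrected and -0.18 to -0.12 corrected. The corrected calls of Ep400, Usp15 and Zfp318 were lost in at least 4 of the 6 fits that left out 1 library, and all 4 genes had positive log2 fold changes, from 0.06 in Ep400 to 0.21 in Strbp, when the mean transcript length replaced the longest. Among the calls lost with the correction, the widest uncorrected changes were in Grin2a (1.80), Hhip (1.44), Spin2e (-1.41) and Pou5f1 (-1.57), none with a group mean above 1.09 CPM, and their edgeR adjusted p-values with the correction ran from 0.0526 to 0.0675.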

How the data were processed

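Stranded libraries of polyadenylated RNA were made from frozen testis, per the labels' protocols. The deposited table holds whole-number read counts per gene that the authors made from their reads. STAR, Trimmomatic, DESeq2 and featureCounts are the tools, and GRCm38 and mm10 the builds, that the submitters' processing notes list. The sources used here give neither versions nor the gene annotation or strand setting. The table has 21959 genes; the 57 without a symbol hold 0.0434 to 0.0469% of a library's counts. Positions, transcript lengths and GC content came from GENCODE release M21, and 3414 tested genes overlap another. Promoter sequences came from RefSeq (GRCm38.p6).

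Libraries were grouped by their titles, since the descriptions give library 3 of each dose the number of library 2. The 6 libraries of the 2 doses were fitted alone with edgeR 4.0.16 in R 4.3.3 (filterByExpr, TMM, robust quasi-likelihood, 4 residual degrees of freedom, Benjamini-Hochberg adjusted p under 0.05). The standard error was taken as the size of the log2 fold change over the square root of F. For the length correction, a lowess trend (span 0.3) of each library's log2 CPM deviation on log2 transcript length entered the offset, and genes with no length were left out. CPM values printed are not length-corrected. The steps were tested on simulated counts.

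The comparison, the gene lists and the named genes were chosen with earlier results of these data known, and lists are described by counts and medians with no test. Genes were named by a rule: the 12 largest corrected rises and falls called in both analyses with a mean of at least 1 CPM and groups that do not overlap, up to 4 members of each list by p plus the widest change of each sign, 4 genes whose call turned and 4 whose call was lost, and a set panel. Library size alone, RLE factors, other count filters, limma voom (limma 3.58.1) with sample weights, DESeq2 1.42.0, all 12 libraries, replicate number as a block, span 0.6, mean transcript length, GC content, a 2-fold limit and leaving out each library were tried as alternatives.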

Additional observations from a re-analysis of the deposited data

How the results depend on the processing

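Without the length correction 7677 genes were called, and 6378 to 8881 over the alternatives, from leaving out library 3 of the 200 mg/kg group to limma voom; leaving out each library gave 6378 to 7796 and DESeq2 6858. With it 6430 were called, and 5248 to 7766, with 5248 to 6504 when each library was left out and 5501 by DESeq2. A fold limit of at least 2 left 522 and 344. Correcting for GC content together with length called 5578 genes, of which 4561 were among the 6430, and the mean transcript length in place of the longest 6534, of which 5131 were. Same-numbered libraries' deviations correlated at -0.035, 0.01 and 0.014, so expression showed no shared effect of the replicate number. The labels do not say whether such libraries were paired. A replicate block called 7495 genes without and 6439 with the correction. Among 200 named genes none reversed without the correction. With it, GC content reversed Aldoa (log2 fold change 0.0172, edgeR adjusted p = 0.761), Gpx4 (0.0647, 0.235), mt-Co2 (-0.0592, 0.451), mt-Nd1 (-0.0648, 0.22), mt-Nd2 (-0.18, 0.0338) and Ptgds (0.0217, 0.722), and weakened 27 others. Mean transcript length reversed Ep400 (0.061, 0.257), Strbp (0.207, 0.00117), Usp15 (0.174, 0.00465) and Zfp318 (0.121, 0.0435), the genes whose call had turned. The cause of these reversals was not tested. Leaving out 1 library ended 2 to 20 of the corrected calls of named genes and 3 to 12 of the uncorrected ones. Genes near 1 CPM rest on few counts, and intervals on counts cover counting error only.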

Other observations

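Complement genes were mixed: of 16 tested, 4 rose and 6 fell uncorrected and 3 rose and 7 fell with the length correction. With GC content added 3 rose and 4 fell. The share called was 62.5% both uncorrected and length-corrected, against 50.1% and 42% of all genes. C7, of the membrane attack complex, went from 49.1 ± 9.22 to 85.2 ± 3.27 CPM and rose 1.73-fold (1.81-fold corrected), while Serping1, the inhibitor of C1, fell by 0.58 on the log2 scale (0.37 corrected). In the matrix, Ogn (osteoglycin, which overlaps Cenpp) rose from 22.1 ± 2.69 to 37.2 ± 2.95 CPM, 1.68-fold (1.77-fold corrected), and Sparc, a collagen-binding glycoprotein, fell 1.29-fold (1.19-fold corrected). Ibsp, the bone sialoprotein gene, had 10, 11.2 and 10.9 CPM at 100 mg/kg and 19.9, 18.6 and 18.5 CPM at 200 mg/kg, with no overlap, a 1.77-fold rise (1.98-fold corrected). Ttn, the giant muscle protein titin with its very long transcript, rose by 0.41 on the log2 scale uncorrected and fell by 0.54 corrected.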
